A study of Mus musculus with 8 samples.

Results

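The genes described here are erythroid transcription factors and their cofactors together with Epor, which encodes the receptor for erythropoietin (EPO), the hormone that keeps red-cell precursors alive. They were chosen by name from 10 listed symbols, of which 8 (Gata1, Tal1, Lmo2, Ldb1, Klf1, Gfi1b, Nfe2 and Epor) were measured among the 47493 genes of the table, and the other 2, Zfpm1 and Cbfa2t3, were not analysed here. RNA was sequenced from CD8+ T-cell preparations of the inguinal lymph nodes and spleen of 4 female C57BL/6 mice, aged 6 to 8 weeks when tumor cells were given. Every mouse was inoculated with 200000 B16F10 melanoma cells on day 0, received cyclophosphamide at 300 mg/kg on day 3, and was given 2000000 Pmel-1 cells, T cells with a transgenic receptor for a melanoma antigen, on day 5. Interleukin-2 (10000 IU) followed daily for 3 days from day 5, a CD4-depleting antibody (200 μg, clone GK1.5) was given weekly for 3 weeks beginning on day 10, and tissues were taken on day 25. After lysis of red blood cells, host CD8+ T cells without Thy1.1, the antigen of the transferred cells, were purified, and those with high IL-18Rα, a chain of the interleukin-18 receptor, were retained on a magnetic column. The retained cells (labelled IL18Rαhi) are called enriched and the cells that passed through (labelled Control) are called flow-through. Each mouse gave 1 library of each fraction, 4 enriched and 4 flow-through in all, and both fractions shared the same genotype and treatment.

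GATA1 is the zinc-finger factor that turns on most red-cell genes. It works in a complex in which TAL1 binds DNA beside it, LMO2 bridges the proteins and LDB1 joins distant elements, and with KLF1, which drives β-globin transcription, GFI1B, a repressor of earlier programs, and the p45 subunit NFE2. These factors are also used by megakaryocytes, mast cells, basophils or blood stem cells in part, whereas KLF1 and EPOR mark the red-cell branch most closely. In mice the spleen makes red cells, and does so more under hematopoietic stress. LDB1 is expressed much more broadly than the others.

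Promoter windows of 300 bases came from RefSeq on build GRCm38.p6, the assembly also called mm10. Each held 250 bases before and 50 from an annotated start, which need not be the upstream end of the gene. Windows were found for 6 of the 8 genes and are printed for those whose levels moved most closely together. Capitals mark matches to the GATA motif AGATAA or TGATAA on either strand, so that TTATCT and TTATCA are matches on the other strand.
Klf1, chr8:84901732-84902031, plus strand: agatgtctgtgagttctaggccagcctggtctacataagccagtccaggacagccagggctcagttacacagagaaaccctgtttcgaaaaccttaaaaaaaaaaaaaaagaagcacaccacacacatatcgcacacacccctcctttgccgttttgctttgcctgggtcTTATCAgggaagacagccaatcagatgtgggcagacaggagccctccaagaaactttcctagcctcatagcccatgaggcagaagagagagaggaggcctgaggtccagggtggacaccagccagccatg
Epor, chr9:21963527-21963826, minus strand: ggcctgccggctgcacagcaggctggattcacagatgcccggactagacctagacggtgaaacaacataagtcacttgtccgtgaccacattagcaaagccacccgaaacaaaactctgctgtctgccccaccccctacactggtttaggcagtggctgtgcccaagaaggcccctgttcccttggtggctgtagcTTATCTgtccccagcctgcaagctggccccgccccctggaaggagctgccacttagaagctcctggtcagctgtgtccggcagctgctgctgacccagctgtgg
Gfi1b, chr2:28621933-28622232, minus strand: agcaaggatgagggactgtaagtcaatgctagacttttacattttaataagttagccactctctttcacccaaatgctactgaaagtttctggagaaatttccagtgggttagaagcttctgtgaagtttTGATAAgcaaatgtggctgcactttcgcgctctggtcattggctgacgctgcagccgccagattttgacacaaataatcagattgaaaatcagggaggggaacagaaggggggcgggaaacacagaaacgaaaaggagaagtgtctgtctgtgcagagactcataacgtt
Tal1, chr4:115056176-115056475, plus strand: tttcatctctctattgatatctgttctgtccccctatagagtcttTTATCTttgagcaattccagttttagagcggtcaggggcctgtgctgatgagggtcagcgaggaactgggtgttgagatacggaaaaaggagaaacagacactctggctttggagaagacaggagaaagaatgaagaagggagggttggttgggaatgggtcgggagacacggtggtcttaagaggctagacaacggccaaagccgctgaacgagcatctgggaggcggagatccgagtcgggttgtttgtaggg
Gata1, chrX:7967861-7968160, minus strand: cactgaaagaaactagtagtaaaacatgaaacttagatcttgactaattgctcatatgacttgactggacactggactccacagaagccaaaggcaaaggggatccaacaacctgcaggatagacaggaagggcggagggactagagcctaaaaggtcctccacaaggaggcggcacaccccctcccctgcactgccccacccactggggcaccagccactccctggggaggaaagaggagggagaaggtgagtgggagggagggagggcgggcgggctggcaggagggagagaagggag
A GATA match lay 54 bases before the start of Epor, 80 bases before that of Klf1, 120 before that of Gfi1b and 205 before that of Tal1 (distances are to the first base of the match). The Gata1 window lay inside the span of the gene (chrX:7959260-7978071) and not at its upstream end. That window held no GATA match. Tal1 has 2 windows and Ldb1 3, so the 6 genes had 9 in all. The Tal1 window that is not printed, at a different start, held no GATA match. Of the Ldb1 windows, also not printed, that at chr19:46037021-46037320 held 2, at 240 and 200 bases before its start, and the others held none. A GATA match was present in 5 of the 9 and in 18.6% of all 32851 windows of the table. The wider motif CCNCNCCC, of the kind KLF factors bind, was present in 7 of 9 and in 49.5% of all windows, the E-box CANNTG in 6 of 9 and 72.3%, and the NFE2 core TGAGTCA in 0 of 9 and 5.2%. Motifs were searched on both strands, and a match describes letters and does not show binding.

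Values are FPKM, fragment values scaled to transcript length and to library depth, as the authors deposited them, and differences were tested with limma on log2(FPKM + 1) over the 12166 genes whose mean reached 1 FPKM, with a Benjamini-Hochberg adjusted p under 0.05 as the threshold. On this scale fold changes of weakly expressed genes come out too small. An estimated 14400000 to 17800000 fragments lay behind each library. The gene of the sorted receptor, Il18r1, had 22.2 to 37.2 FPKM in the flow-through against 107 to 116 in the enriched libraries. Both fractions carried the markers of the labelled cells, with Cd8a at 179 to 345 FPKM in the flow-through against 361 to 385 in the enriched libraries, and Cd3e at 123 to 224 and 232 to 248. Flow-through replicate 1 stood apart, since the geometric mean of its 8 CD8 T-cell markers was 0.576 times that over all libraries, against 0.922 to 1.17 times in the other 7, and it also held the highest value of each of the 8 genes described here.

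All 8 genes were lower in the enriched than in the flow-through library of the same mouse in 4 of 4 mice. Of those that passed the test, Gata1, Tal1, Gfi1b and Epor fell most, to between 0.158 and 0.359 of the flow-through level within a mouse, and Ldb1 fell least, to between 0.574 and 0.670. By limma, 7 of the 8 were called lower, where 13.7% of all tested genes were called lower and 14.1% higher, and Klf1 was not called. With the mouse as a block all 8 were called lower, where 22.7% of all tested genes were called lower and 22.2% higher. The flow-through and enriched libraries did not overlap for 6 of the 8, as was so for 15.9% of tested genes with the enriched libraries below. In RNA of mixed cells, fewer cells of a type and less RNA per cell cannot be told apart.

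**Figure D1:**
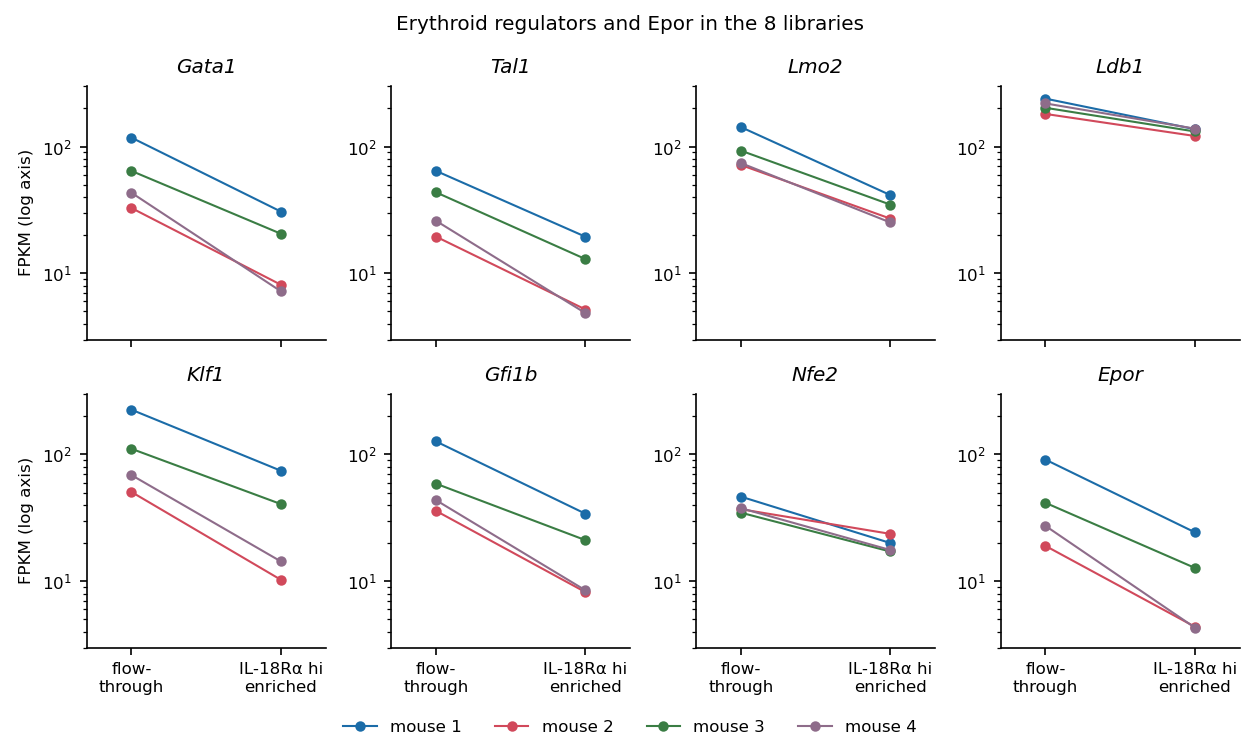
FPKM (log axis) of the 8 genes in the flow-through and IL-18Rα hi enriched libraries, with a line for each mouse. All 32 lines fall from left to right, mouse 1 has the highest flow-through value in each panel, and the lines of Ldb1 and Nfe2 lie closer together than those of Klf1 and Epor.

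Gata1 (ENSMUSG00000031162, chrX:7959260-7978071), the master factor of the red-cell program, had 117, 32.7, 64.2 and 43.2 FPKM in flow-through replicates 1 to 4 and 30.7, 8.13, 20.5 and 7.22 in the enriched libraries of the same mice. The lowest flow-through value, from mouse 2, lay just above the highest enriched value, from mouse 1. The mean was 64.4 ± 37.7 FPKM (SD, n = 4) in the flow-through against 16.6 ± 11.2 in the enriched fraction, a 3.87-fold difference of means, and the log2 fold change was -1.95 (SE 0.52, adjusted p = 0.0251 by limma).

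Tal1 (ENSMUSG00000028717, chr4:115056426-115071755), the basic helix-loop-helix partner of GATA1, had 64.2, 19.44, 43.5 and 25.9 FPKM in the flow-through against 19.43, 5.18, 12.9 and 4.85 in the enriched libraries. The groups met at their edges, where flow-through replicate 2 and enriched replicate 1 differed by 0.01 FPKM. The log2 fold change was -1.82 (SE 0.49, adjusted p = 0.0263 by limma).

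Lmo2 (ENSMUSG00000032698, chr2:103957986-103981878), the bridging LIM protein, had 142, 71.5, 92.8 and 74.1 FPKM in the flow-through against 41.4, 27.0, 34.9 and 25.2 in the enriched libraries. Each flow-through library lay clearly above each enriched one, and the mean was 95.2 ± 32.9 FPKM (SD, n = 4) against 32.1 ± 7.49. The log2 fold change was -1.51 (SE 0.24, adjusted p = 0.00377 by limma).

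Ldb1 (ENSMUSG00000025223, chr19:46031570-46045214), the looping cofactor, was the most abundant of the set, with 239, 181, 202 and 219 FPKM in the flow-through against 137, 121, 131 and 138 in the enriched libraries. The groups were separate and the libraries within each were close together, at 210 ± 24.6 FPKM (SD, n = 4) and 132 ± 7.86. Its log2 fold change of -0.66 (SE 0.10, adjusted p = 0.00271 by limma) was the smallest of the 8. Ldb1 shares its locus with Pprc1 on the opposite strand (up to 34.6 FPKM) and Lmo2 with 4931422A03Rik (up to 0.993 FPKM), and as the strand was not used by default in the authors' quantification, reads of such pairs could be exchanged.

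Klf1 (ENSMUSG00000054191, chr8:84901928-84905291), the activator of adult β-globin, had 225, 50.6, 111 and 68.7 FPKM in the flow-through against 74.4, 10.3, 40.6 and 14.3 in the enriched libraries. Mouse 1 was so much higher than the others in both fractions that its enriched library exceeded the flow-through libraries of mice 2 and 4. The log2 fold change of -1.85 (SE 0.66) did not pass the threshold without a block (adjusted p = 0.0685 by limma), and it did with the mouse as a block (SE 0.15, adjusted p = 0.00034). Within mice the enriched level was 0.330, 0.203, 0.367 and 0.209 of the flow-through level.

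Gfi1b (ENSMUSG00000026815, chr2:28609450-28621982), the repressor, had 126, 35.8, 58.7 and 43.5 FPKM in the flow-through against 34.0, 8.20, 21.1 and 8.47 in the enriched libraries. As for Gata1, the lowest flow-through library was that of mouse 2 and the highest enriched one that of mouse 1, with a narrow gap between them. The log2 fold change was -1.88 (SE 0.52, adjusted p = 0.0287 by limma).

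Nfe2 (ENSMUSG00000058794, chr15:103248212-103258403), which with a small Maf protein binds globin control elements and is also a platelet factor, had 46.5, 37.0, 34.7 and 37.7 FPKM in the flow-through against 20.03, 23.6, 17.2 and 17.6 in the enriched libraries. The spread between mice was small here, at 39.0 ± 5.16 FPKM (SD, n = 4) and 19.6 ± 2.96, and mouse 2 rather than mouse 1 had the highest enriched value. The log2 fold change was -0.96 (SE 0.13, adjusted p = 0.0019 by limma), the smallest adjusted p of the set.

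Epor (ENSMUSG00000006235, chr9:21958897-21963506), the receptor, had 91.0, 19, 41.5 and 27.3 FPKM in the flow-through against 24.3, 4.38, 12.7 and 4.31 in the enriched libraries. The groups overlapped, as the enriched library of mouse 1 exceeded the flow-through library of mouse 2, although the level fell within every mouse. The mean was 44.7 ± 32.2 FPKM (SD, n = 4) against 11.4 ± 9.46, a 3.91-fold difference of means, with a log2 fold change of -1.95 (SE 0.61, adjusted p = 0.0448 by limma). The lowest value rested on an estimated 109 fragments, the fewest behind any value of the 8 genes.

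**Figure D2:**
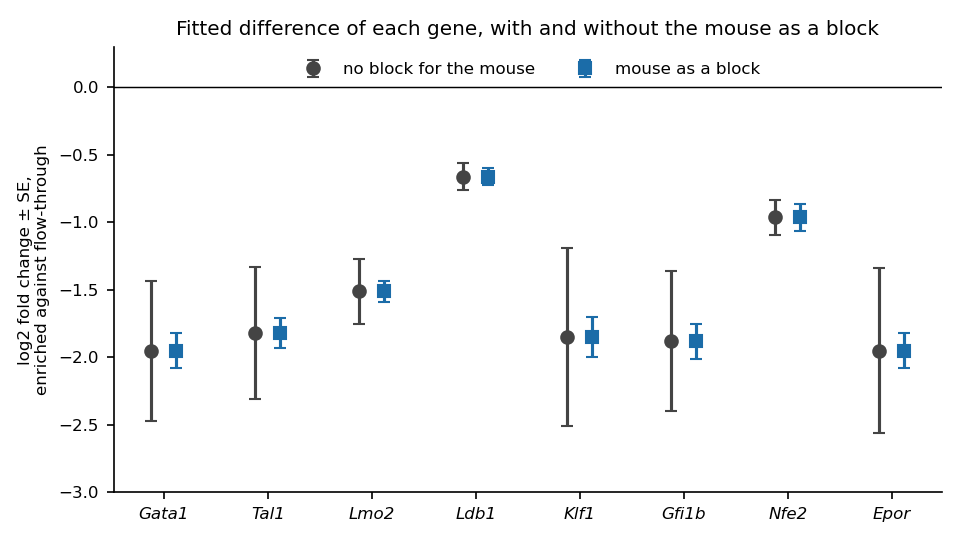
Log2 fold change (enriched against flow-through, log2(FPKM + 1) scale) of the 8 genes with its standard error, from limma without a block (circles) and with the mouse as a block (squares), n = 4 libraries per fraction. The estimates are equal in both fits, between -1.95 and -0.66, and the standard error of Epor is 0.61 without and 0.13 with the block.

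The calls of Nfe2, Lmo2 and Ldb1 held when any 1 library was left out. Those of Gata1, Tal1 and Gfi1b were lost without flow-through replicate 3 (adjusted p = 0.0665, 0.0731 and 0.0694), without enriched replicate 2 (0.0716, 0.0734 and 0.0788) and without enriched replicate 4 (0.0676, 0.071 and 0.0784), which left 3 of 8 genes called. In the same order, these fits called 939 of 12176, 958 of 12138 and 971 of 12126 tested genes lower. Epor was lost without flow-through replicate 1, 3 or 4 (0.0818, 0.103 and 0.061) or enriched replicate 2, 3 or 4 (0.116, 0.0709 and 0.114), and Klf1 was gained without enriched replicate 1 (0.0298). With the mouse as a block, all 8 genes were called lower whichever mouse was left out. These fits called from 1739 of 12164 tested genes lower (without mouse 3) to 2468 of 12234 (without mouse 1). Without flow-through replicate 1, the library with the lowest T-cell marker level, the log2 fold change of Gata1 was -1.61, that of Klf1 -1.44 (adjusted p = 0.134) and that of Ldb1 -0.60. When libraries were scaled to equal levels of CD8 T-cell markers, the 8 log2 fold changes ran from -2.28 to -1.0. Of the 8, 6 were called, where 906 of 12182 tested genes were called lower. That scaling moved the median of all tested genes from -0.02 to -0.33, and with it 36.0% of calls were higher, against 50.8% without it.

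Mice differed in the level of the set as a whole. Mouse 1 had the highest flow-through value of 8 of 8 genes, and mouse 1 followed by mouse 3 ranked highest for 6 of 8 genes in the flow-through and for 6 of 8 in the enriched fraction. The exceptions were Nfe2 and Ldb1, whose highest library was 1.34 and 1.32 times the lowest in the flow-through, while for Epor it was 4.79 times and for Klf1 4.45 times. The order by mean level in the flow-through was Ldb1, Klf1, Lmo2, Gfi1b, Gata1, Epor, Nfe2 and Tal1, and the ranges of all neighbours in that order overlapped. In the enriched fraction Nfe2 stood between Lmo2 and Gfi1b, and the ranges of neighbours did not overlap between Ldb1 and Klf1 or between Lmo2 and Nfe2.

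Relative to Gata1 within the same library, some of the genes kept a near-fixed proportion and others did not. Gfi1b was 0.915 to 1.17 times Gata1 in the 8 libraries, Tal1 0.546 to 0.677 times and Epor 0.539 to 0.792 times, although Gata1 itself ranged from 7.22 to 117 FPKM. Klf1 was 1.26 to 2.42 times Gata1. The ratio of Lmo2 to Gata1 ranged from 1.21 to 3.49, that of Nfe2 from 0.396 to 2.91 and that of Ldb1 from 2.03 to 19.2, and each of these 3 ratios was higher in the enriched library in 4 of 4 mice. The 7 ratios share Gata1 as their denominator, so they are given as a description.

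The genes with the pattern nearest to that of Gata1 over the 8 libraries, by the root mean square difference of centred log2(FPKM + 1), were Abcb4 (0.0718), Gfi1b (0.0964), Tal1 (0.111), Sphk1 (0.124) and Gstm5 (0.134). Abcb4, a phospholipid transporter, had 55.1, 16.3, 27.3 and 19.9 FPKM in the flow-through against 13.5, 3.07, 9.45 and 2.99 in the enriched libraries. The nearest to Epor were Fam132a (0.103), Ermap (0.129), Aqp1 (0.131), Pklr (0.138) and Gata1 itself (0.153). Ermap and Aqp1 encode red-cell surface proteins and Pklr the pyruvate kinase of red cells and liver, and the Pklr level was 138, 27.6, 69.1 and 39.9 FPKM in the flow-through against 35.4, 8.89, 22.4 and 6.34 in the enriched libraries.

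Of 25 listed subunits and partners of these factors, 22 were tested, and 4 were called lower and 0 higher (7 lower and 1 higher with the mouse as a block). Over all tested genes, 13.7% were called lower and 14.1% higher (22.7% and 22.2% with the block). The median log2 fold change was -0.05, where that of all tested genes was -0.02. Lyl1, a close relative of Tal1, had 23.7 to 29.5 FPKM in the flow-through against 12.1 to 16.4 in the enriched libraries (log2 fold change -0.93, SE 0.11, adjusted p = 0.0014). Ssbp2, which stabilizes LDB1, fell from 29.3 ± 4.27 to 12.7 ± 2.36 FPKM (SD, n = 4, log2 fold change -1.15, adjusted p = 0.00153 by limma). The other 2 called, named after their values were seen, were the small Maf gene Mafk (-0.39, adjusted p = 0.0127) and the deacetylase gene Hdac2 (-0.34, adjusted p = 0.0371). Tcf3 and Tcf12 encode the E proteins that pair with TAL1. Tcf3 had a log2 fold change of -0.42 (adjusted p = 0.132 by limma, and 0.0174 with the block). Tcf12 had -0.07 (adjusted p = 0.594, and 0.539 with the block). Lmo4, the gene called higher with the block, had 0.57 (adjusted p = 0.0719 without it).

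Other regulators of blood lineages went both ways, with 6 of 16 called lower, 3 higher (7 and 5 with the mouse as a block) and a median log2 fold change of -0.23. Over all tested genes, 13.7% were called lower and 14.1% higher (22.7% and 22.2% with the block). Myb, a factor of progenitors, fell from 82.9 ± 5.17 to 26.8 ± 5.23 FPKM (SD, n = 4, log2 fold change -1.61, SE 0.13, adjusted p = 0.000291 by limma), and its 4 flow-through libraries, at 75.9 to 86.9 FPKM, lay close together. Bcl11a, a repressor of fetal globin, fell by 1.38 on the log2 scale (adjusted p = 0.00928), and Gata2, the GATA factor that precedes GATA1, fell by 0.82 (adjusted p = 0.0227). Gata2 had 13, 18.9, 18.6 and 22.7 FPKM in the flow-through, so mouse 1 was the lowest for Gata2 and the highest for Gata1. The 3 called higher were E2f2 (log2 fold change 1.37), the T-cell factor Gata3 (1.31) and Runx1 (0.63), the last 2 named after their values were seen, and those added by the block were Spi1 (0.70) and Fli1 (0.68), also named after their values were seen. Gfi1, the paralog of Gfi1b, had 5.60 to 15 FPKM in the flow-through against 5.92 to 17.0 in the enriched libraries (log2 fold change 0.04, adjusted p = 0.947).

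Genes that act downstream of the EPO receptor, most of which also serve cytokine receptors of T cells, were mostly not lower. Of 19 tested, 2 were called lower and 7 higher (5 and 11 with the mouse as a block), with a median log2 fold change of 0.28. Over all tested genes, 13.7% were called lower and 14.1% higher (22.7% and 22.2% with the block). Kit, the stem cell factor receptor that acts beside EPOR in progenitors, had 29.97 to 38.3 FPKM in the flow-through against 11 to 16 in the enriched libraries (log2 fold change -1.12, adjusted p = 0.00136), and Stat5a fell by 0.48 (adjusted p = 0.00908). Stat5b had a log2 fold change of -0.01 (adjusted p = 0.916). Jak2, the kinase bound to EPOR, rose by 0.31 (adjusted p = 0.0188), and stood at -0.02 with T-cell scaling. The STAT5 target Cish rose from 5.82 ± 1.10 to 14.1 ± 3.43 FPKM (SD, n = 4, log2 fold change 1.13, adjusted p = 0.00453 by limma), and the survival gene Bcl2l1 from 14 ± 1.40 to 28.0 ± 0.539 FPKM (0.96, adjusted p = 0.000363).

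Among red-cell genes, those of the membrane and of heme and iron differed widely between mice. All 15 membrane genes had a negative log2 fold change (median -1.18). With the mouse as a block 14 were called lower, where 22.7% of all tested genes were. Without a block 3 were called lower, where 13.7% of all tested genes were. The 3 were Mfsd2b, a sphingosine-1-phosphate exporter (-2.25, adjusted p = 0.00435), Ermap (-1.90, adjusted p = 0.0438) and the water channel gene Aqp1 (-1.90, adjusted p = 0.0456). Slc4a1, which encodes the anion exchanger band 3 of mature red cells, had 63.6, 5.89, 21.7 and 8.08 against 55.8, 5.87, 21.5 and 5.64 FPKM, which is nearly the same level in both fractions of mice 2 and 3 (-0.16, adjusted p = 0.905, and 0.199 with the block).

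All 13 genes of heme synthesis and iron had a negative log2 fold change (median -0.88). Without a block 2 were called lower, where 13.7% of all tested genes were. With the mouse as a block 13 were called lower, where 22.7% of all tested genes were. Car1, an early carbonic anhydrase gene, was the highest of them at 882 ± 328 FPKM in the flow-through against 153 ± 80.8 in the enriched fraction (SD, n = 4, log2 fold change -2.61, adjusted p = 0.00302 by limma). Tfr2, the transferrin receptor that associates with EPOR, fell from 90.6, 28.3, 50.5 and 37.5 to 18.3, 5.95, 14 and 5.39 FPKM (-2.17, adjusted p = 0.0098). The heme enzyme genes Fech and Urod had log2 fold changes of -0.80 and -0.77 (adjusted p = 0.186 and 0.0779), and Blvrb had -1.66 (adjusted p = 0.0563).

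Globins and other late genes had the median nearest to 0 of the 3 red-cell lists, a log2 fold change of -0.48 over 10 tested, with 1 called lower and 1 higher (5 and 1 with the mouse as a block). Over all tested genes, 13.7% were called lower and 14.1% higher (22.7% and 22.2% with the block). Hba-a1, an α-globin gene, had 507, 72.2, 244 and 90.6 FPKM in the flow-through against 478, 46.5, 163 and 55.0 in the enriched libraries. The log2 fold change was -0.50 (adjusted p = 0.686, and 0.011 with the block). Hbb-bs, a β-globin gene, had 387, 71.4, 157 and 64.6 against 380, 35.9, 117 and 47.8 FPKM (-0.46, adjusted p = 0.695, and 0.0354 with the block), and reads of near-identical globin copies are hard to assign. In mouse 1 Hba-a1 and Hbb-bs were almost as high in the enriched as in the flow-through library, while Gata1 in that mouse was at 0.261 of its flow-through level. A further α-globin and a further β-globin copy were higher in the enriched library of mouse 1, at 127 against 106 and 148 against 41.4 FPKM. Each was lower in 3 mice, and neither was called with the block (adjusted p = 0.0669 and 0.963 by limma). Hemgn and Trim58, other late genes, were lower in 4 of 4 mice. Hemgn, a nuclear protein gene of erythroid cells, had 69.4, 12.9, 34.5 and 16.5 FPKM in the flow-through against 34.8, 5.9, 20.1 and 6.19 in the enriched libraries (-1.0, adjusted p = 0.286, and 0.000594 with the block). The gene called lower was Trim58 (-1.10, adjusted p = 0.0195), a ubiquitin ligase gene of late erythroblasts whose enriched level was 0.128 to 0.417 of the flow-through level within mice, and that called higher was Xpo7 (0.56, adjusted p = 0.0156), a nuclear exporter gene with 0.26 and an adjusted p of 0.208 under T-cell scaling.

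**Figure D3:**
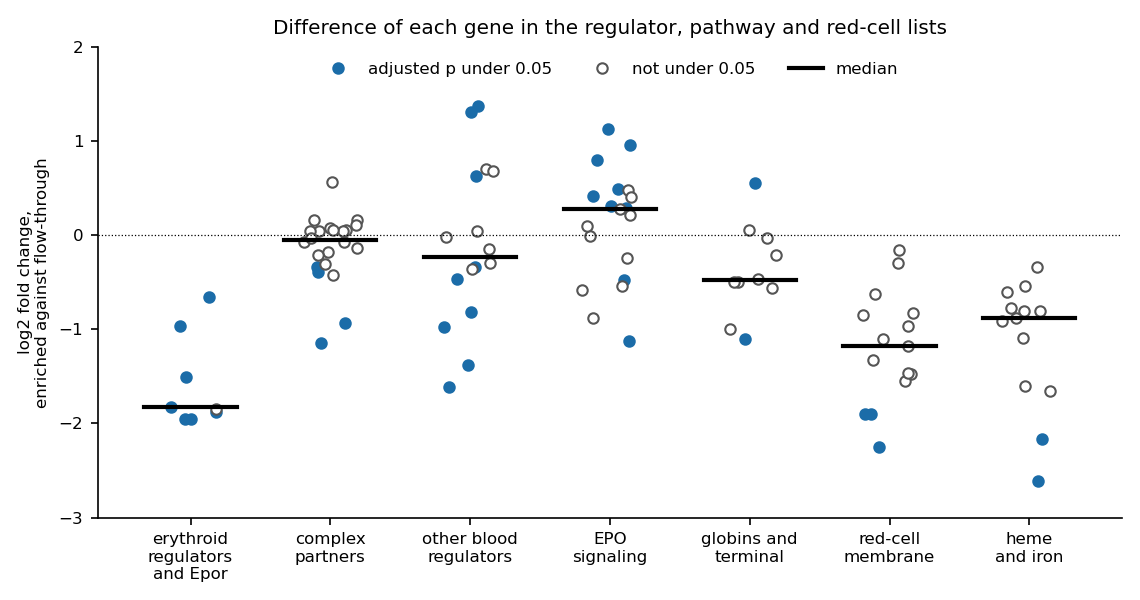
Log2 fold change (enriched against flow-through) of each tested gene in 7 lists, with filled points for an adjusted p under 0.05 by limma without a block, open points for the others and a bar for the median. The medians are -1.83 for the regulators with Epor, -1.18 for the red-cell membrane, -0.88 for heme and iron, -0.48 for globins and terminal genes and 0.28 for EPO signaling.

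Gata1 was also set against 1 late gene, Alas2, which encodes the erythroid enzyme that starts heme synthesis and does not stand for the late genes as a group. Alas2 had 13.7, 2.63, 7.18 and 2.2 FPKM in the flow-through against 13.8, 1.27, 6.25 and 2.25 in the enriched libraries (log2 fold change -0.21, adjusted p = 0.838). Gata1 was 8.55, 12.5, 8.93 and 19.6 times Alas2 in the flow-through against 2.22, 6.39, 3.28 and 3.21 times in the enriched libraries, with no overlap between the groups. The log2 ratio of (Gata1 + 1) to (Alas2 + 1) was 3.25 ± 0.37 (SD, n = 4) in the flow-through against 1.5 ± 0.39 in the enriched fraction, a difference of -1.75, and it was lower in 4 of 4 mice. The ratio restates levels given above and was chosen with both genes' values known, so it is a description and no independent evidence. Exact permutation of all libraries (two-sided, 70 arrangements), which does not use the pairing by mouse, gave p = 0.0286, the smallest that 4 against 4 can give, and exact sign flips within mice gave p = 0.125, the smallest that 4 pairs can give.

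**Figure D4:**
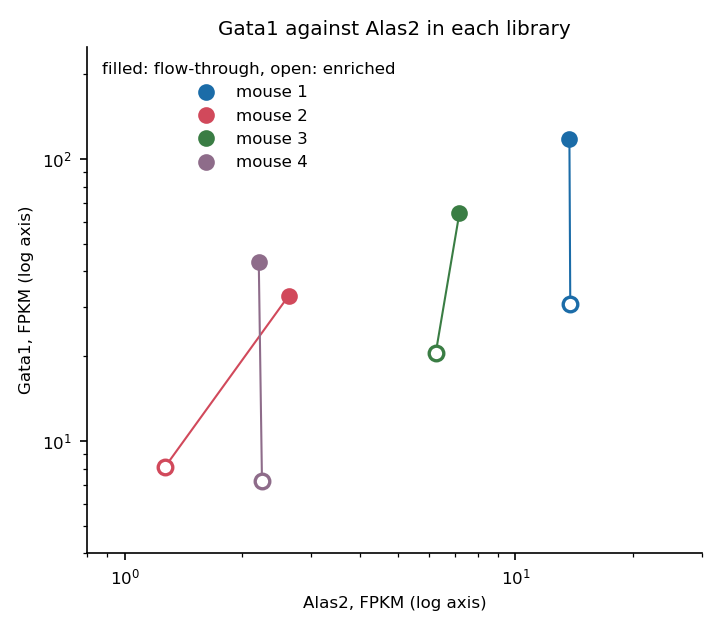
Gata1 against Alas2 in FPKM (both axes logarithmic) in each library, with a line joining the flow-through (filled) and enriched (open) library of each mouse. Gata1 falls in every mouse, and Alas2 is 13.7 and 13.8 FPKM in mouse 1 and 2.2 and 2.25 FPKM in mouse 4.

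Other cells that use part of this factor set were read from marker lists. The shares to set beside their counts are 13.7% of all tested genes called lower and 14.1% higher (22.7% and 22.2% with the block). Of 7 mast cell and basophil genes tested, 0 were called lower and 2, Mcpt8 and Prss34, higher (0 and 5 with the mouse as a block), and their summed level was 86.0 to 276 FPKM in the flow-through against 261 to 615 in the enriched libraries. Mcpt8, a basophil protease gene, had 28.9, 87.4, 33.4 and 49.1 FPKM in the flow-through against 91.2, 201, 92.7 and 144 in the enriched libraries (log2 fold change 1.45, adjusted p = 0.023), so mouse 1, the highest for Gata1, was the lowest for Mcpt8. The limma calls of Mcpt8 and Prss34 were lost without flow-through replicate 3 (adjusted p = 0.0665 and 0.0587), without enriched replicate 2 (0.0621 and 0.0538) and without enriched replicate 4 (0.0634 and 0.0557), and that of Mcpt8 also with T-cell scaling (0.0508). Eosinophil genes, which GATA1 also controls, summed to 97.9 to 441 and 78.3 to 311 FPKM, with 0 of 3 called (3 lower with the block), and Epx was again lowest in mouse 1, at 8.62 FPKM in the flow-through against 6.19 in the enriched library. Megakaryocyte genes were low, with sums of 30.4 to 39.8 and 25.0 to 37.5 FPKM over 12 genes. Of 8 tested, 2 were called lower and 1 higher (3 and 1 with the mouse as a block). Gp5 fell from 4.44 ± 0.939 to 0.660 ± 0.222 FPKM (SD, n = 4, log2 fold change -1.70, adjusted p = 0.000544 by limma), Gp1ba, named after its values were seen, fell by 0.57 (adjusted p = 0.0101), and Itgb3 rose by 0.83 (adjusted p = 0.0227). Pf4 had a log2 fold change of -0.31 (adjusted p = 0.331 by limma, and 0.243 with the block). Itga2b had -0.32 (adjusted p = 0.448, and 0.0436 with the block).

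Of 7 stem and progenitor genes, 4 were called lower (Cd34, Kit, Gata2 and Hoxa9, the last named after its values were seen) and 1 higher (5 and 1 with the mouse as a block, Meis1 being the fifth), with sums of 65.6 to 89.2 and 28.4 to 52.7 FPKM. Cd34 had 7.96, 26.4, 11.1 and 17.3 FPKM in the flow-through against 3.24, 7.43, 5.58 and 6.4 in the enriched libraries (log2 fold change -1.24, adjusted p = 0.0315), and the gene called higher was Flt3 (1.18, adjusted p = 0.0327). CD8 T-cell markers summed to 1337 FPKM in flow-through replicate 1, 2144 to 2548 FPKM in flow-through replicates 2 to 4 and 2542 to 2724 in the enriched libraries, with 0 of 8 called (Cd2 higher with the block, log2 fold change 0.58, adjusted p = 0.0305 by limma). Of 10 myeloid genes, 4 were called higher (Lyz2, Itgam, and, named after their values were seen, Adgre1 and Cd68) and 0 lower, against 8 higher and 1 lower (Mpo, log2 fold change -0.27) with the block, with sums of 504 to 2658 against 795 to 3569 FPKM. Of 7 NK-cell genes, 5 were called higher (Ncr1, Klrb1c, Gzma, and, named after their values were seen, Klre1 and Klra8) and 0 lower, against 6 and 0 with the block, with sums of 32.9 to 62.3 against 107 to 211 FPKM. B-cell genes summed to 24.6 to 64.7 and 40.6 to 83.6 FPKM, with 1 of 5, Cd22, called higher (2 with the block, Cd79b being the other). Meis1, Mpo and Cd79b were named after their values were seen. For each of these lists, the shares of all tested genes were 13.7% called lower and 14.1% higher (22.7% and 22.2% with the block). The part of these other cells in the levels of the erythroid regulators was not tested.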

How the data were processed

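The authors filtered reads of low quality, mapped them to mm10 with TopHat and computed FPKM with Cufflinks 2.1.1, with correction for multi-mapped reads and fragment bias and other options at their defaults. The deposited FPKM are relative to transcript length and library depth, no counts were used, and the annotation release is not given in the sources used here. Libraries came from a stranded poly(A) kit.

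Groups and replicate numbers came from the sample labels. That the same number is the same mouse was taken from the treatment protocol, since the labels name no mouse. Both fractions came from the same 4 mice, and libraries of the same number deviated together from their fraction means (r = 0.660, 0.589, 0.308 and 0.471 across genes). Each r was above those of the same flow-through library with the enriched libraries of other numbers. The reverse comparison, from each enriched library, was not made. limma 3.58.1 in R 4.3.3 was fitted to log2(FPKM + 1) with a variance trend, over genes whose mean reached 1 FPKM, without a block, since the study names none for these data, and again with the mouse as a block. P-values without the block measure the spread between libraries of a fraction and do not use the pairing by mouse. Those with the block measure the spread of the differences within mice. Single ratios were compared by exact permutation. Depth was estimated from the lowest values of single-transcript genes of 1500 bases or longer with an FPKM up to 0.2, and no counting interval was given. The fit without a block was tested on simulated data in which libraries shared no mice, and the fit with the block was not tested in this way.

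The genes and lists were chosen with earlier results of these data known. Besides the 8 genes, named genes were the first 3 of each list, its 3 largest changes and the 5 most alike, and others were named after their values were seen as stated. Some genes selected by this rule are not reported here, although list counts and medians still include them. Of the identifiers, 98.9% were in GENCODE release M21, which gave coordinates, and RefSeq gave the promoters. The table's running numbers reach 47729, of which 236 were not used here, and 27 names turned into dates by spreadsheet software were restored. Alternatives were a pseudocount of 0.1, no filter or a mean of at least 5 FPKM, equal sums, equal levels of CD8 T-cell markers, no variance trend, each library left out and, added after seeing the data, the block without each mouse and with T-cell scaling.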

Additional observations from a re-analysis of the deposited data

Results flagged for a closer look

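None of the 16 groups of 4 libraries formed by the 8 erythroid genes held a library far from the other 3 by Dixon's test at the 95% level. Over all 158 groups of the genes named here, 6 did, and chance alone gives about 1 in 20, or 7.9 groups. In flow-through replicate 1, Kit was at 38.3 FPKM against 29.97 to 30.4 in the other 3 libraries, Stat5a at 44.2 FPKM against 33.7 to 34.9, and Xpo7 at 3.89 FPKM against 5.90 to 6.11. Lyl1 was at 16.4 FPKM in enriched replicate 2 against 12.1 to 12.6 in the others, Fli1 at 36.5 FPKM in enriched replicate 4 against 32.2 to 32.9, and Bcl2l1 at 28.8 FPKM in enriched replicate 3 against 27.7 to 27.8.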

How the results depend on the processing

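All 8 erythroid genes kept a negative log2 fold change in every alternative. With no filter on low levels 3 were called, where 1283 of 22789 tested genes were called lower. Gata1 (-1.95), Tal1 (-1.82), Gfi1b (-1.88) and Epor (-1.95) were then not called. Epor was also not called with equal sums (-1.98) or T-cell scaling (-2.27). Klf1 was called with the mouse as a block (replicate block, -1.85), with T-cell scaling and the block (-2.18), and with the block without mouse 1, 2, 3 or 4 (-1.93, -1.73, -1.99 and -1.74). The block changed no other call of the 8 genes. Leaving out 1 library gave 3 to 8 genes called lower and 0 higher, and log2 fold changes of -2.31 to -1.61 for Gata1, -2.34 to -1.43 for Klf1, -2.16 to -1.53 for Tal1, -2.26 to -1.52 for Gfi1b, -1.05 to -0.87 for Nfe2, -1.64 to -1.30 for Lmo2, -0.73 to -0.60 for Ldb1 and -2.40 to -1.53 for Epor.

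Over all genes, 1720 were higher and 1664 lower, against 509 and 906 with T-cell scaling, 2705 and 2763 with the block, 612 higher with both (21.5% of calls), and 1107 to 1813 higher and 939 to 1780 lower without 1 library. The shares of the 12166 tested genes were 14.1% higher and 13.7% lower, and 22.2% and 22.7% with the block. Over the lists, 22 genes were lower and 25 higher, against 12 higher with T-cell scaling, 61 and 42 with the block, 56 lower with both, 14 to 25 lower and 15 to 29 higher without 1 library, and, with the block, 58 lower and 40 higher without mouse 1, 58 and 38 without mouse 2, 50 lower without mouse 3 and 51 lower without mouse 4. The log2 ratio of Gata1 to Alas2 was -1.75 with sign flips within mice, a test that cannot pass the threshold, and -1.91 to -1.57 without 1 library. The cause of these changes was not tested.

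Another 8 named genes changed sign in some alternative, none with an adjusted p under 0.05 on the opposite side, although Jak2 was called without T-cell scaling, and Hba-a1, Hbb-bs and Mpo were called with the block. Gfi1 was at -0.26 with T-cell scaling, with or without the block, at -0.01 with the block without mouse 2 and at -0.20 to 0.26 without 1 library. Jak2 was at -0.02 with T-cell scaling and Stat5b at 0.00 with equal sums. Without 1 library Stat5b ranged from -0.03 to 0.01, Hba-a1 from -1.16 to 0.03, Hbb-bs from -1.13 to 0.06, Alas2 from -0.70 to 0.22, Slc4a1 from -0.79 to 0.47 and Mpo from -0.72 to 0.18, the highest value of Hba-a1, Hbb-bs, Alas2 and Slc4a1 being that without flow-through replicate 1. Of the 43 other named genes that were called, 18 lost the call without at least 1 library (adjusted p up to 0.118), namely Abcb4, Adgre1, Aqp1, Cd34, Ermap, Flt3, Gata2, Gstm5, Hdac2, Hoxa9, Itgb3, Jak2, Klre1, Lyz2, Mcpt8, Prss34, Sphk1 and Trim58. With T-cell scaling 14 lost it, namely Adgre1, Aqp1, Ermap, Flt3, Hdac2, Itgb3, Jak2, Klre1, Lyz2, Mafk, Mcpt8, Runx1, Stat5a and Xpo7, and 11 did with no filter and 0 with the block. Of the 8 erythroid genes, depth limits Epor most, and the lowest values of Trim58, Gp5 and Klra8 rest on an estimated 9, 14 and 4 fragments. The 4 mice limit every comparison.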
